A study of Mus musculus with 8 samples.

Results

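The lining of the small intestine and that of the colon are one continuous sheet of epithelium, and the comparison described here set them against each other in the same mice. The libraries were chosen by their labels: wild-type ileum replicates 1 and 2 and wild-type colon replicates 1 and 2, which make up 4 of the series' 8 libraries. Both wild-type mice were 8 weeks old and were DDX5(+/+), Vil1Cre(+), so they carried the Villin1-driven Cre transgene of the intestinal epithelium with intact Ddx5 alleles. The other 4 libraries came from DDX5KO mice of the same age, Ddx5 fl/fl and Vil1Cre(+), and are used here only as a second pair of animals for the same contrast. Intestinal epithelial cells were released from each tissue by EDTA, ribosomal RNA was depleted, and stranded RNA-seq libraries were made. The replicate number names the mouse, so that each mouse gave 1 ileum and 1 colon library.

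The ileum is the distal end of the small intestine. Its absorptive cells finish the digestion of sugars and peptides at the brush border, package dietary fat into lipoproteins and recover bile acids for return to the liver, while Paneth cells at the crypt base secrete antimicrobial peptides. The colon has no Paneth cells under normal conditions, a thicker mucus layer and an epithelium specialized for taking up salt, water and short-chain fatty acids.

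The 4 libraries held between 14878989 and 22984283 counts, and 15665 genes passed the filter on low counts. Across these genes the replicate libraries correlated at r = 0.988 in the ileum and 0.992 in the colon, against 0.870 to 0.874 between tissues, a description across genes that are not independent. Levels are in CPM, read counts scaled to the library total adjusted by TMM, a normalization factor for each library. Pan-epithelial genes were abundant in every library. Epcam, a surface adhesion molecule, was at 2060 and 1977 CPM in the ileum and 1669 and 1498 in the colon. Ddx5, which the wild-type label requires, was at 734, 733, 810 and 741 CPM. The ileum libraries held more genes at 1 to 3 counts, 12387 and 9846 against 5905 and 5138 in the colon, and 3.93 to 4.05% of their counts fell on 3 repeat-like genes that were left out, against at most 0.0438% in the colon. The part of this low-level signal in ileum-higher genes was not tested, and 104 of the ileum-higher and 121 of the colon-higher genes below had a mean under 1 CPM in the higher tissue. Markers of other cells were low but present. Summed over 21 markers of intraepithelial lymphocytes they reached 112 to 136 CPM in the ileum and 56.6 to 80.6 in the colon. B and plasma cell markers summed to at most 11.7 CPM, myeloid markers to at most 42.2 and stromal markers to at most 29.8.

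A gene was called where edgeR's quasi-likelihood test with the mouse as a block gave a Benjamini-Hochberg adjusted p under 0.05 and the difference was at least 2-fold. By this rule 1541 genes were higher in the ileum, which is 9.84% of those tested, and 1658 were higher in the colon, which is 10.6%. The median log2 of ileum over colon across all tested genes was -0.02. By the fitted ratios, which depend on the prior count for genes with no count in one tissue, large differences were more frequent on the ileal side: 310 ileum-higher genes differed by at least 4 on the log2 scale and 83 by at least 8, whereas 251 and 29 colon-higher genes did. In the colon libraries 62 of the ileum-higher genes had no count at all, and 32 of the colon-higher genes had none in the ileum. Protein-coding genes made up 1319 of the ileum-higher and 1376 of the colon-higher genes. The ileum-higher genes took 20.4 and 19.7% of the counts of the ileum libraries and 4.57 and 4.68% of those of the colon libraries. The colon-higher genes took 13.4 and 13.5% of the colon counts and 3.88 and 3.06% of the ileum counts. In bulk libraries of pooled epithelial cells such as these, fewer cells of a type and less RNA per cell cannot be told apart.

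**Figure D1:**
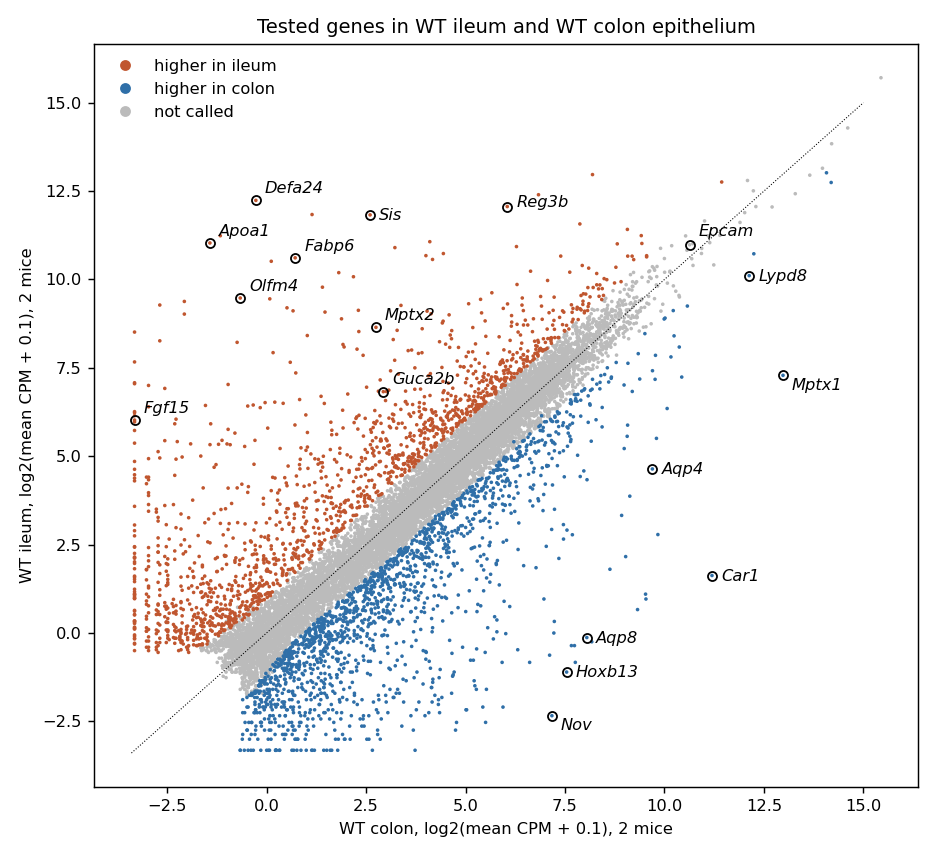
Mean level of each of the 15665 tested genes in WT ileum (vertical axis) against WT colon (horizontal axis), both as log2(CPM + 0.1) over 2 mice, with the 1541 ileum-higher genes in orange and the 1658 colon-higher genes in blue. Epcam lies near the dotted line of equal levels, while Defa24 and Apoa1 lie far above it and Car1 and Nov far below it.

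Of the 1319 ileum-higher and 1376 colon-higher protein-coding genes, 547 and 278 were abundant and did not overlap between the tissues' libraries. Abundant here means at least 50 CPM in the higher tissue. How many of all tested genes met both limits was not counted. Of the 547, the 12 with the largest fitted ileal excess were mostly Paneth cell alpha-defensins and related peptides: Defa21, Defa5, Defa2, Defa34, Defa22, Defa3, Defa30, AY761184 and Gm15292. The remaining 3 were Slc28a1, which takes up pyrimidine nucleosides, Fgf15, the hormone by which the ileum signals bile acid supply to the liver, and Apoa1, a lipoprotein component. For 9 of these 12 no colon library held a count, so that their place among the 12 rests on fitted ratios: as a lower bound, the 854-fold of Fgf15 is below the measured ratio of Defa24, which is not among them (log2 12.79 ± 0.35). Slc28a1 was at 110 and 154 CPM in the ileum with no count in either colon library, at least 1692-fold higher against a floor of 3 counts over the pair of colon libraries. Apoa1 (chr9:46228580-46230466) was at 2004 and 2176 CPM in the ileum and 0.497 and 0.0462 in the colon, a log2 ratio of 12.98 ± 0.34 (SE, adjusted p = 1.04e-08 by edgeR).

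The 12 genes with the largest fitted colonic excess included enzymes, channels and secreted proteins. Nov (chr15:54745702-54754039), a secreted matricellular protein, was at 114 and 174 CPM in the colon and had 3 counts in the ileum, a count ratio of 1680 with an exact 95% interval of 575 to 8150 that covers counting error only. Car1 and Car2, carbonic anhydrases of the colonic surface, followed: Car1 (chr3:14766216-14808368) was at 2136 and 2542 CPM in the colon and 4.35 and 1.60 in the ileum, and Car2 at 776 and 704 against 1.498 and 2.179. The others described here were Hoxb13, a posterior homeobox gene, Thbs4, a thrombospondin, Sult1a1, a phenol sulfotransferase, Tgm3, a transglutaminase, Aqp8, a water channel, Sycn, Atp12a, a proton-potassium pump, and Wfdc2. Their log2 ratios ran from -9.05 ± 0.18 for Hoxb13 to -8.11 ± 0.23 for Wfdc2. The rule that picked these genes required no overlap between the tissues' libraries and took the largest ratios. Their separation is therefore not a separate finding.

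**Figure D2:**
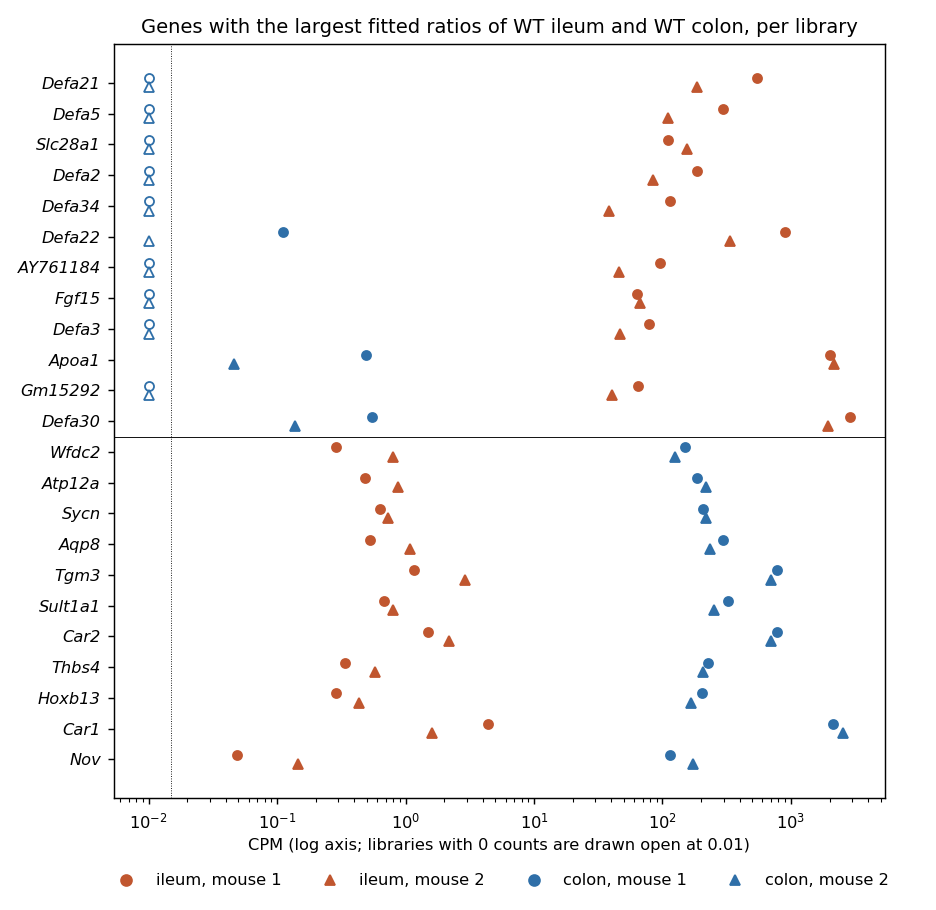
CPM (log axis) in each WT library of the 12 protein-coding genes with the largest fitted ileal excess (above the line) and of those with the largest fitted colonic excess (below it), leaving out 1 that is not reported, with circles for mouse 1 and triangles for mouse 2. Open symbols at the left are libraries with 0 counts, and the genes were picked so that their ileum and colon libraries do not overlap.

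Read per unit of gene length, as TPM computed from the counts and the deposited gene lengths, the 5 highest protein-coding genes of the ileum were Defa24 at 21500 ± 2069 (SD, n = 2), mt-Co1, Defa30, Reg3b and Ang4. Those of the colon were mt-Co1 at 18799 ± 2956, Mptx1 at 15676 ± 2566, Clca1 at 6583 ± 418, Lypd8 at 5393 ± 60.2 and Krt8 at 3806 ± 79.2. Apart from mt-Co1, a mitochondrial subunit of cytochrome oxidase, and Krt8, a keratin of simple epithelia, these genes encode secreted or surface proteins of the defense barrier. The mt-Co1 level did not pass the test between tissues (log2 -0.35 ± 0.14, adjusted p = 0.0666), and neither did Krt8 (0.27 ± 0.12, adjusted p = 0.0965).

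Paneth cell genes gave the largest group difference. Of 19 tested markers 18 were higher in the ileum and none in the colon, with a median log2 of 11.93, or 10.47 when the 5 genes with no colon count were set at their lower bound. The defensins among these markers passed the filter on low counts through the ileum, so their calls were close to fixed in advance. Defa24 (chr8:21734494-21735471) was at 5690 and 3945 CPM in the ileum and 1.27 and 0.185 in the colon. Lyz1, the Paneth lysozyme, was at 1917 and 1001 CPM against 0.993 and 0.970, and Mmp7, the protease that matures the defensins, at 199 and 127 against 1.55 and 1.57. Itln1, a lectin, was less restricted, at 2312 and 1581 CPM against 79.1 and 75.8. The exception was Ang4, an antimicrobial ribonuclease, at 2471 and 2329 CPM in the ileum and 1379 and 1576 in the colon (log2 0.70 ± 0.12, adjusted p = 0.00122), which differed but by less than 2-fold.

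All 19 tested alpha-defensin genes were called ileum-higher, and together they summed to 11897 and 7486 CPM in the ileum against 2.32 and 0.323 in the colon. With 42 and 7 counts over all 19 in the colon libraries, they passed the filter on low counts through the ileum. That all tested members were called was therefore close to fixed in advance. Single members are uncertain, since 100% of the 50-base words of Defa2 and 99.7% of those of Defa5 are found in other genes as well and reads that map to several places were not counted. The mice differed here: the defensins were a median of 1.94 times higher in mouse 1 than in mouse 2, with a range of 1.02 to 6.92, whereas the median over the 14045 genes with at least 10 counts in both ileum libraries was 0.994. Even the lower ileal sum exceeded the higher colonic one by far more than the mice differed from each other.

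The digestive surface of the enterocyte followed the same direction. Of 24 tested brush-border genes 23 were higher in the ileum, with a median log2 of 4.0. Anpep, aminopeptidase N, was at 4277 and 3021 CPM in the ileum and 2.26 and 1.94 in the colon. Sis (chr3:72888557-72967863), sucrase-isomaltase, was at 3061 and 4189 CPM against 7.01 and 4.90. The span was wide. Mgam, maltase-glucoamylase, kept 553 and 518 CPM in the colon beside 2877 and 2575 in the ileum (log2 2.35 ± 0.11), and the structural microvillus genes Vil1, Myo1a, Myo7b, Cdhr2 and Cdhr5 differed by log2 values of only 1.08 to 1.82, of which that of Cdhr5 fell below 2-fold with library totals as the only scaling (0.94). Ush1c, a scaffold of the intermicrovillar complex, did not reach 2-fold (0.36 ± 0.09). Vil1, whose promoter drives the Cre of these mice, was at 2493 and 2334 CPM in the ileum and 680 and 684 in the colon. Lactase, Lct, stayed below the filter, with 0.483 and 7.99 CPM in the ileum libraries.

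Carriers for sugars, peptides and amino acids were higher in the ileum for 19 of 27 tested genes and in the colon for 3. Slc6a19, the main neutral amino acid carrier of the apical membrane, was at 730 and 666 CPM in the ileum and 0.938 and 0.970 in the colon (log2 9.50 ± 0.15). Slc5a1, the sodium-glucose cotransporter, was at 1579 and 1651 CPM against 174 and 161, and Slc15a1, the peptide carrier, at 519 and 487 against 77.8 and 64.5. Slc2a2, the basolateral glucose exit, was uneven between mice at 13.4 and 71.3 CPM in the ileum, with 0.221 and 0 in the colon. The colonic carriers were Slc6a14, a broad amino acid carrier at 1137 and 1005 CPM against 118 and 44.0, Slc1a5, for glutamine, and Slc2a1, whose log2 of -1.0 sat at the threshold and passed it neither with DESeq2 nor with no block for the mouse (-0.99 in each), nor without ileum replicate 1 (-0.79) or colon replicate 1 (-0.90). Slc16a1, which carries short-chain fatty acids, was at 474 and 413 CPM in the colon and 196 and 267 in the ileum, short of 2-fold (log2 -0.95 ± 0.14, adjusted p = 5.36e-04), and was past it under upper-quartile scaling (-1.06) and without ileum replicate 2 (-1.17) or colon replicate 2 (-1.03).

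Lipid handling was ileal in 21 of 25 tested genes and colonic in 2, with a median log2 of 4.04. The genes run from uptake at the apical membrane to the assembly of chylomicrons, the particles that carry dietary fat. Npc1l1, which takes up cholesterol, was at 526 and 509 CPM in the ileum and 0.276 and 0 in the colon. Mogat2 and Dgat1, which rebuild triglyceride, had log2 ratios of 7.16 ± 0.13 and 3.46 ± 0.09, and Mttp, which loads it onto apolipoprotein B, was at 801 and 955 CPM against 3.09 and 1.99. Apob was at 4784 and 5980 CPM against 117 and 110. Apoa4 varied between the mice, at 175 and 420 CPM, but was at 0.993 and 0 in the colon. The colonic members were Scarb1, a lipoprotein receptor (log2 -3.74 ± 0.24), and Plin2, a lipid droplet coat (-1.22 ± 0.09). Genes of cholesterol synthesis moved little: 5 of 21 were called ileum-higher, each by a log2 of at most 1.27, and the count fell to 2 with library totals as the only scaling.

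Genes of the bile acid cycle differed in opposite directions along the pathway. Uptake, carriage and export genes were ileal: Slc10a2, the apical sodium-bile acid cotransporter, was at 745 and 638 CPM in the ileum and 41.9 and 40.9 in the colon, Fabp6 (chr11:43596049-43601540), the cytosolic bile acid binding protein, at 2187 and 934 against 1.32 and 1.76, and Slc51a and Slc51b, which pair to form the basolateral exporter, had log2 ratios of 4.33 ± 0.18 and 3.18 ± 0.14. Fgf15 was at 63.1 and 66.3 CPM in the ileum with no colon count, at least 854-fold higher. Its receptor Fgfr4 and the coreceptor Klb were on the colonic side, Klb at 10.5 and 8.09 CPM against 0.483 and 0.363 and Fgfr4 at 15.3 and 15.9 against 6.09 and 7.92, and Abcc3, another basolateral exporter, was at 334 and 329 CPM against 136 and 103. Nr1h4, the bile acid receptor FXR, was expressed in both at 149 and 125 CPM against 80.2 and 74.7 (log2 0.82 ± 0.09, adjusted p = 6.88e-05), below 2-fold. Fgfr4 lost its call without ileum replicate 1, at a log2 of -0.97.

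**Figure D3:**
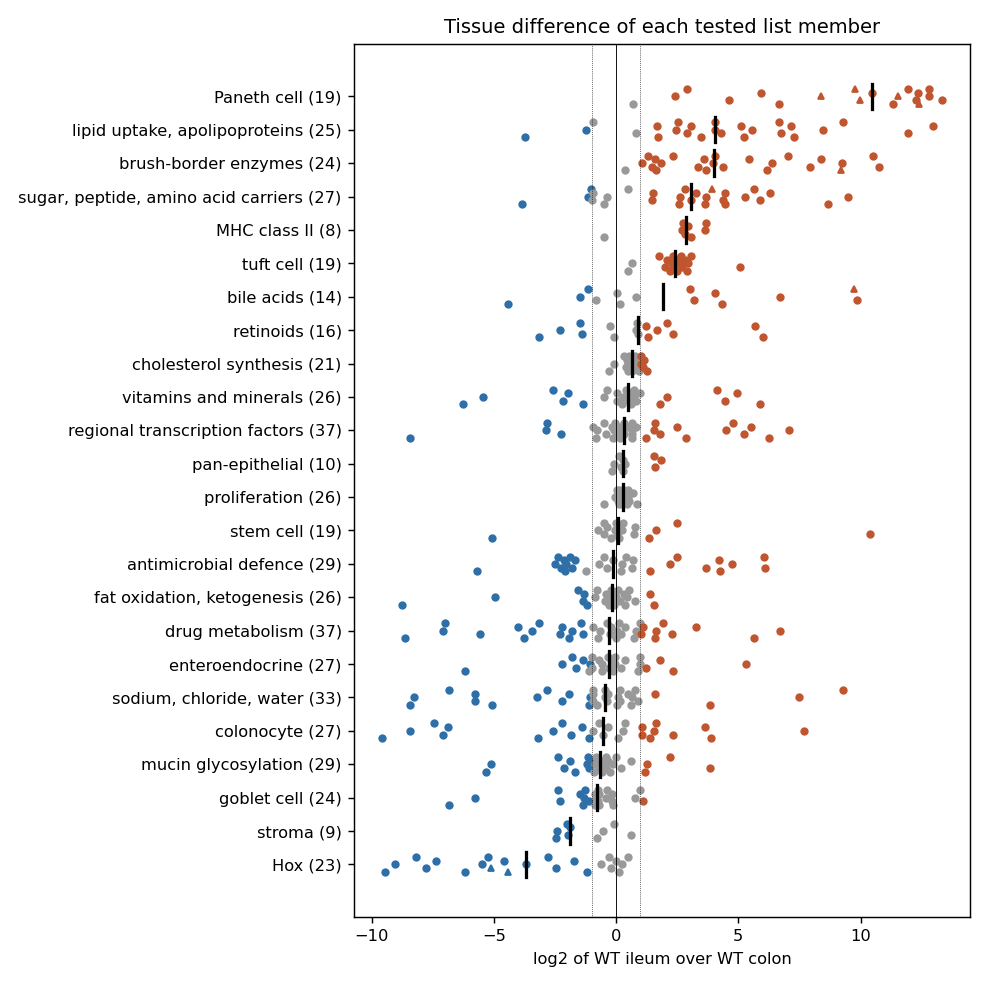
Log2 of WT ileum over WT colon for every tested member of 24 gene lists, with the number tested in parentheses, black bars at the medians and dotted lines at the 2-fold limits. Orange and blue symbols were called higher in the ileum and in the colon, gray ones were not called, and triangles mark lower bounds of genes with no count in one tissue; Paneth cell genes lie furthest to the right and Hox genes furthest to the left.

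Salt and water transport held genes of both sides. Of 33 tested genes 12 were colon-higher and 4 ileum-higher, with a median log2 of -0.46 beside -0.02 for all genes. The epithelial sodium channel, the aldosterone-controlled route of sodium uptake, was colonic in all 3 subunits: Scnn1a was at 51.4 and 52.3 CPM in the colon and 24.6 and 23.6 in the ileum, Scnn1b at 7.23 and 6.10 against 0.0967 and 0.145, and Scnn1g at 2.48 and 1.29 against 0 and 0.0727. Nr3c2, the mineralocorticoid receptor, had a log2 of -1.08 ± 0.08, and Hsd11b2, which protects it from glucocorticoids, was at 82.2 and 79.2 CPM against 9.04 and 7.99. Among anion exchangers Slc26a3 was colonic, at 702 and 626 CPM against 151 and 139, and Slc26a6 ileal, at 316 and 364 against 2.10 and 1.76. Water channels split likewise. Aqp8 was at 295 and 233 CPM in the colon and 0.532 and 1.09 in the ileum, and Aqp4 at 813 and 843 against 26.0 and 23.5, while Aqp7, which passes glycerol, was at 30.6 and 39.0 CPM in the ileum with 2 counts in the colon, a count ratio of 675 with an exact 95% interval of 186 to 5582. Cftr, the apical chloride channel, did not pass the test (log2 0.06 ± 0.09, adjusted p = 0.612).

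**Figure D4:**
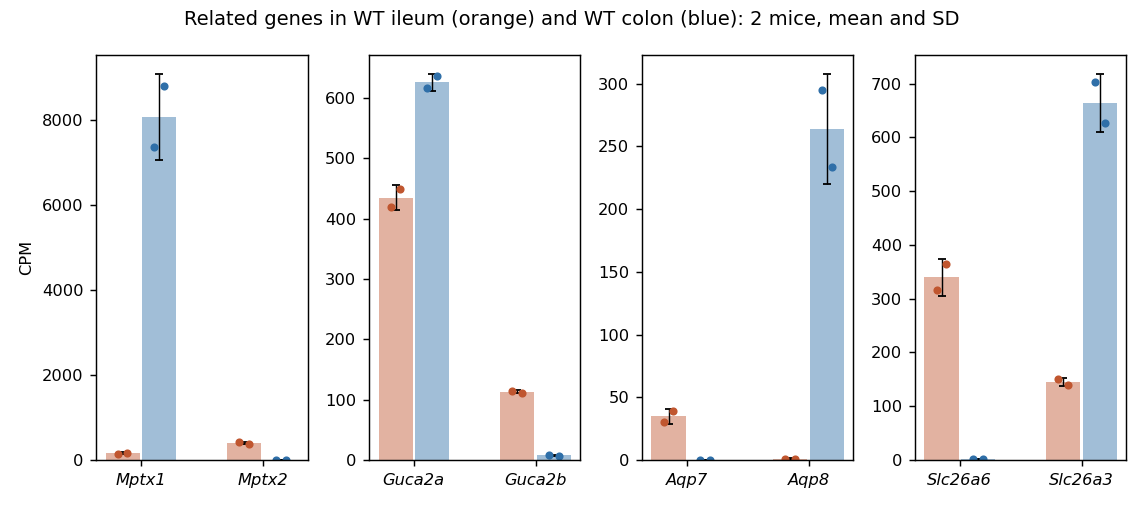
CPM of 4 pairs of related genes in WT ileum (orange) and WT colon (blue), with points for the 2 mice, bars for their mean and error bars for the SD. Mptx1 and Mptx2, Aqp8 and Aqp7, and Slc26a3 and Slc26a6 lie on opposite sides, while Guca2a is abundant in both tissues and Guca2b in the ileum.

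Genes listed for surface colonocytes lay on both sides, 11 of 27 colon-higher and 9 ileum-higher. Colonic members with the largest ratios, beside Car1 and Aqp8, were Slc37a2, a sugar phosphate carrier at 159 and 139 CPM against 0.628 and 1.16, Cyp2c55, a cytochrome P450 at 887 and 936 against 5.75 and 7.77, and Hao2, a peroxisomal oxidase at 438 and 352 against 3.34 and 3.41. Clca4b and Tmigd1, both of differentiated surface cells, were ileal at log2 ratios of 7.69 ± 0.14 and 3.65 ± 0.10, as was Krt20, a keratin of differentiated cells, at 1.57 ± 0.10. Car4, a membrane carbonic anhydrase often used as a colonocyte marker, was at 494 and 567 CPM in the ileum and 257 and 249 in the colon, a call lost under upper-quartile scaling (log2 0.96) and without ileum replicate 2 (0.97).

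Goblet cell genes leaned to the colon, with 9 of 24 colon-higher and 1 ileum-higher and a median log2 of -0.79. The abundant mucus components differed by modest factors: Fcgbp was at 17815 and 19504 CPM in the colon and 8028 and 5655 in the ileum, Zg16, a lectin, at 1741 and 1305 against 627 and 586, while Muc2, the gel-forming mucin, and Clca1 stayed below 2-fold (log2 -0.69 ± 0.16 and -0.83 ± 0.14). A few members were near the detection floor in the ileum. Best2, a chloride channel of goblet cells, was at 23.1 and 16.5 CPM against 0.193 and 0.145, and Muc1 at 5.68 and 4.30 against 0.0967 and 0.0727, with 3 ileum counts. Spink4 was the ileal member, at 1648 and 1534 CPM against 630 and 868, and its call was lost with library totals as the only scaling (log2 0.96) and without colon replicate 1 (0.87). Of 29 tested enzymes of mucin glycosylation 10 were colonic and 4 ileal. The sialyltransferases St6gal1 and St6galnac6 were at 66.8 and 58.0 and at 542 and 575 CPM in the colon against 2.13 and 1.38 and 11.2 and 17.7 in the ileum, St3gal4 was ileal at 2178 and 1929 against 440 and 458, and Gcnt4, a core branching enzyme, was ileal at a log2 of 3.82 ± 0.14.

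Innate defense genes outside the Paneth list fell on both sides, with 9 of 29 ileum-higher and 10 colon-higher. The oxidase Duox2 and its maturation factor Duoxa2 were ileal, Duox2 at 2938 and 3130 CPM against 222 and 245. The bactericidal lectins Reg3b and Reg3g varied between the mice: Reg3b was at 6406 and 2132 CPM in the ileum and 26.7 and 105 in the colon (log2 6.07 ± 0.78, adjusted p = 2.15e-04), and Reg3g at 2730 and 665 against 10.8 and 32.4 (6.06 ± 0.76, adjusted p = 1.88e-04). Mouse 1 had the higher ileal and the lower colonic level of both, and the call of Reg3b was lost in a fit of all 8 libraries. On the colonic side were Lypd8, which coats flagellated bacteria, at 4560 and 4383 CPM against 1302 and 901, Retnlb, a goblet cell resistin-like protein, at 1080 and 1208 against 247 and 200, and the bacterial sensors Tlr1, Tlr2, Tlr4, Tlr5 and Nod2 with log2 ratios from -2.50 to -1.68. Nos2, the inducible nitric oxide synthase, was at 182 and 27.5 CPM in the ileum and 21.5 and 12.7 in the colon, a log2 of 2.22 that was 0.70 without ileum replicate 1 and missed the threshold with DESeq2 and without colon replicate 2. Pigr, the carrier of secretory immunoglobulin A, was at 4203 and 3375 CPM in the ileum and in the colon at 3969 and 4302 (log2 -0.13 ± 0.14, adjusted p = 0.470).

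A pair of mucosal pentraxin genes on chromosome 1 ran in opposite directions. Mptx1 (chr1:174330518-174332873) was at 7351 and 8777 CPM in the colon and 138 and 174 in the ileum (log2 -5.70 ± 0.15, adjusted p = 9.76e-09), whereas Mptx2 (chr1:173274382-173277777) was at 423 and 376 CPM in the ileum and 5.63 and 7.58 in the colon (log2 5.91 ± 0.15, adjusted p = 1.00e-08). Of the 50-base words of Mptx1 and Mptx2, 17.9 and 18.0% recurred elsewhere among the transcripts. Their RefSeq promoter windows, 250 bases before to 50 after the start on GRCm38.p6, at chr1:174330268-174330567 on the plus strand and chr1:173277707-173278006 on the minus strand, were 78% identical over 323 aligned columns. They are printed to show how alike the starts of genes with opposite tissue profiles are. Capitals here mark every match on either strand to TATAAA, the TATA box, AGATAA, bound by GATA factors, TTTATGG, bound by CDX factors, or CAAAGTCCA, bound by HNF4. No matches to different motifs overlapped in the windows shown.
Mptx1: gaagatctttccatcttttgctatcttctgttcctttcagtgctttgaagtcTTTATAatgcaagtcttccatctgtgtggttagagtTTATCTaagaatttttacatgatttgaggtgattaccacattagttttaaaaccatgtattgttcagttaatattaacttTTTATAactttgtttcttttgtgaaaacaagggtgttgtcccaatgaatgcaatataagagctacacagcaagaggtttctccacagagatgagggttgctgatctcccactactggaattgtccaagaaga
Mptx2: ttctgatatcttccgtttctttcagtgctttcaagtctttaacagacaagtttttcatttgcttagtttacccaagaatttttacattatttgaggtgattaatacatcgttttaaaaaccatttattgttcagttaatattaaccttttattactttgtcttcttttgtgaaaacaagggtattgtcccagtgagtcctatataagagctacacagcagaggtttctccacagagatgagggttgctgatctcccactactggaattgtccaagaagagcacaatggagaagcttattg
Mptx1 held TATAAA on the reverse strand 198 and 82 bases before the start and AGATAA 162 bases before it, and Mptx2 held no match in this window.

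The Reg3b and Reg3g windows, at chr6:78370635-78370934 on the plus strand and chr6:78468825-78469124 on the minus strand, show the contrasting case of related genes with like profiles. They were 69% identical, and each had TATAAA on the forward strand, 29 and 27 bases before the start; Reg3g held TATAAA also on the reverse strand, 161 bases before it.
Reg3b: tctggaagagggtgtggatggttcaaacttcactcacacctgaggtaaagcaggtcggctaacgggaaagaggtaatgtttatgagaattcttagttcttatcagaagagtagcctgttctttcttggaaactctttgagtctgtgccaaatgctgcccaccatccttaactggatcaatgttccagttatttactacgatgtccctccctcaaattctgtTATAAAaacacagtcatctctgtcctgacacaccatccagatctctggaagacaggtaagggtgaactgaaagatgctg
Reg3g: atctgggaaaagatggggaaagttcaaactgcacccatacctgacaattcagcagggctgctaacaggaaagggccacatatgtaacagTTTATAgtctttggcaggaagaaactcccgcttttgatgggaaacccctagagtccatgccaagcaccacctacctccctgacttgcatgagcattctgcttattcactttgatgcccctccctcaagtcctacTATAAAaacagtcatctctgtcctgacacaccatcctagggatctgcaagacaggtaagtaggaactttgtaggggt
Across the 1038 ileum-higher genes with a promoter entry 11.6% held TATAAA, as did 11.6% of the 1136 colon-higher genes, beside 6.6% of the tested genes that were not called and 14.2% of all 27025 promoters. AGATAA was in 9.63, 6.6, 6.28 and 11.4% of the same sets, TTTATGG in 2.41, 1.85, 1.49 and 2.76%, and CAAAGTCCA in 1.54, 0.88, 0.31 and 0.477%. These are counts of letters in a window and no measure of binding.

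Guca2a and Guca2b, neighbors on chromosome 4 that encode the fluid-regulating peptides guanylin and uroguanylin, formed a further pair. Guca2a was at 420 and 449 CPM in the ileum and 616 and 636 in the colon (log2 -0.53 ± 0.09, adjusted p = 0.00162), below 2-fold, and Guca2b at 115 and 111 CPM against 7.84 and 7.21 (3.91 ± 0.10). The windows, at chr4:119637482-119637781 on the plus strand and chr4:119658896-119659195 on the minus strand, were 50.9% identical.
Guca2a: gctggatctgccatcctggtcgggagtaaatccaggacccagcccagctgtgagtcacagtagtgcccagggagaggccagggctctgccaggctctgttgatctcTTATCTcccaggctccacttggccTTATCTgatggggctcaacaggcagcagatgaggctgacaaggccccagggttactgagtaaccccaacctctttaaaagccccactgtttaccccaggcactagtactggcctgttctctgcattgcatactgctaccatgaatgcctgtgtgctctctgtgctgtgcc
Guca2b: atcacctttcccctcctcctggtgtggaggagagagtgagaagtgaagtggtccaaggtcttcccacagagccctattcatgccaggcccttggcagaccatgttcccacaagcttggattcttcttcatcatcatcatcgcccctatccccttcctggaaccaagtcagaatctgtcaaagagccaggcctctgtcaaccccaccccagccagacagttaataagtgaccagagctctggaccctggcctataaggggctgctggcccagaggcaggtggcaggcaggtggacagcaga
Guca2a had AGATAA on the reverse strand 144 and 120 bases before the start, and Guca2b held none of the motifs.

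Hox genes, which record position along the body axis, were higher in the colon wherever a call was made. Of 23 tested members 16 were colon-higher and none ileum-higher, with a median log2 of -3.70. Of 38 Hox genes with an entry 15 stayed below the filter. The clusters were unlike one another: all 10 tested Hoxa genes and all 5 tested Hoxd genes were colon-higher, but of 8 tested Hoxb genes only Hoxb13 was. The tested Hoxd genes, at 0.291 CPM or less in the ileum, and most tested Hoxa genes passed the filter through the colon. For those genes a colon-higher call was close to fixed in advance. Hoxa13 was at 48.9 and 41.5 CPM in the colon with 2 counts in the ileum, a count ratio of 773 with an exact 95% interval of 214 to 6387, Hoxa10 at 27.5 and 26.8 CPM with 3 counts, and Hoxd13 at 19.9 and 20.6 against 0.145 and 0.0727. Hoxb13 (chr11:96194316-96197447) was the highest, at 204 and 167 CPM against 0.290 and 0.436. From Hoxb3 to Hoxb9 the log2 ratios lay between -0.61 and 0.51, with Hoxb6 at 20.1 and 14.7 CPM in the ileum and 18.4 and 16.6 in the colon. No Hoxc gene passed the filter, and none had more than 5 counts in any of the 4 libraries. Hoxa4 lost its call with DESeq2 and on leaving out any 1 library, and Hoxa6 and Hoxd12 lost theirs with DESeq2.

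**Figure D5:**
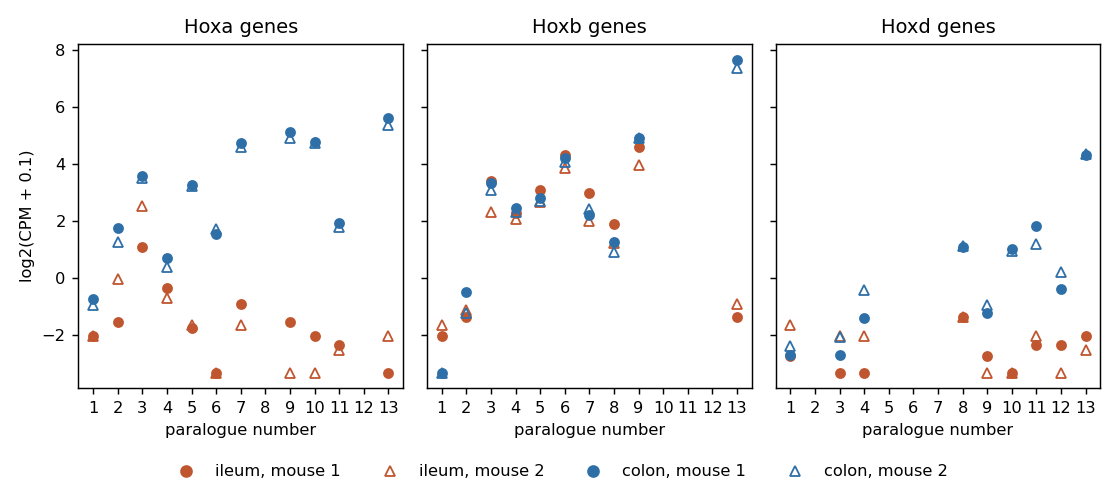
Levels of the Hoxa, Hoxb and Hoxd genes listed in the tables, as log2(CPM + 0.1), by paralogue number in each WT library (ileum orange, colon blue; filled circles mouse 1, open triangles mouse 2). Hoxa genes from 2 upward and Hoxd genes from 8 upward lie higher in the colon, while the Hoxb genes from 3 to 9 overlap or nearly so and Hoxb13 is far apart.

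Among 37 tested regional transcription factors 12 were ileum-higher and 4 colon-higher. Gata4 was at 8.85 and 26.1 CPM in the ileum and 0.883 and 0.370 in the colon, and Gata5 at 84.6 and 85.9 against 0.497 and 0.739; both direct small intestinal identity. Maf, which controls enterocyte transport genes, was at 393 and 342 CPM against 6.24 and 3.51, and Tbx3 at 224 and 194 against 10.2 and 8.22. Hnf4g, a regulator of brush-border genes, had a log2 of 2.87 ± 0.11. Foxd2 was the most separated colonic factor of the list, at 41.6 and 44.5 CPM against 0.0483 and 0.218, followed by Foxa2 and Pparg.

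Tuft cell genes, of the chemosensory cells that detect parasites and microbial metabolites, were higher in the ileum together. Of 19 tested 17 were ileum-higher, with a median log2 of 2.41 and every log2 value above 0: the channel Trpm5 was at 104 and 163 CPM against 21.6 and 25.6, Dclk1 at 133 and 206 against 32.1 and 34.6 and the lineage factor Pou2f3 at 12.7 and 18.6 against 2.04 and 2.40. Sucnr1, the succinate receptor, was further apart at 8.94 and 11.6 CPM against 0.276 and 0.323 (log2 5.07 ± 0.28). Hpgds and Tas1r3 were not called.

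Enteroendocrine genes fell on both sides, with 4 of 27 ileum-higher and 6 colon-higher, beside 9.84 and 10.6% of all tested genes. Among the colonic ones, the regulators Nkx2-2 and Lmx1a lost their calls with DESeq2 and in a fit of all 8 libraries. Insl5 was colonic at 15.7 and 19.4 CPM against 0.193 and 0.291, and Pyy at 20.5 and 25.3 against 4.69 and 5.23, as was Tph1, which makes serotonin. Nts and Sct were ileal at log2 ratios of 1.79 ± 0.15 and 1.24 ± 0.15, calls that were lost in a fit of all 8 libraries (adjusted p = 0.0719 and 0.0881 by edgeR), and Cck and Gip were ileal at levels of at most 3.34 CPM.

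Crypt genes differed in a few members. None of 26 proliferation genes was called in either direction, although 9.84 and 10.6% of all genes were, and their log2 ratios lay between -0.49 and 0.88. Of these 26, 16 had an unadjusted p and 13 an adjusted p under 0.05 by edgeR, 12 of the 13 higher in the ileum and 1 in the colon, all by less than 2-fold. DESeq2 called 0 in either direction. Of 19 stem cell genes 4 were ileum-higher and 1 colon-higher. Olfm4 was at 706 and 714 CPM in the ileum and 0.552 and 0.508 in the colon (log2 10.38 ± 0.16), Lgr5, the receptor that marks cycling stem cells, at 21.0 and 13.7 against 6.01 and 5.17, Axin2, a Wnt target, at 109 and 79.4 against 35.6 and 36.9, and Msi1 had a log2 of 2.48 ± 0.26. Sox9 and Ephb2, both of the lower crypt, did not pass the test, at log2 0.09 ± 0.09 and -0.06 ± 0.09.

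Metabolic lists held a few large differences among many small ones. In fat oxidation and ketogenesis 2 of 26 were ileum-higher and 6 colon-higher, beside 9.84 and 10.6% of all tested genes. Pdk4, which restrains pyruvate use, was at 6.40 and 20.8 CPM in the colon against 0.435 and 0.291, while Oxct1, which uses ketone bodies, was ileal at 653 and 800 against 288 and 271. The other ileal member, Angptl4, had a log2 of only 0.36 without ileum replicate 2. Of the colonic members, Acaa1b was at -0.93 without colon replicate 2 and Acot1 at -0.90 without ileum replicate 1. Of 37 genes of drug metabolism 14 were colonic, among them Cyp2d34 (log2 -6.98 ± 0.15), Sult1c2 (-4.03 ± 0.14), Adh1 (-3.77 ± 0.12) and Gstm1 (-3.44 ± 0.13). Another 9 were ileal, among them Abcc2, an apical exporter at 78.2 and 87.0 CPM against 0.938 and 0.647, and Cyp4f14 (3.25 ± 0.11). For vitamins and minerals 6 of 26 lay on each side. The vitamin B12 receptor genes Cubn and Amn were ileal, Cubn at 681 and 547 CPM against 10.04 and 10.49, as was the phosphate carrier Slc34a2 at 495 and 526 against 18.9 and 28.8. The calcium channel Trpv6 was colonic at 12.1 and 16.0 CPM against 0.242 and 0.0727, as was the iron exporter Slc40a1 at 184 and 198 against 62.4 and 37.8. Rbp2, which carries retinol in enterocytes, was at 151 and 370 CPM in the ileum and 4.91 and 4.53 in the colon.

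Genes of MHC class II were ileum-higher for 7 of 8 tested, at a median log2 of 2.87. Cd74 was at 989 and 430 CPM in the ileum and 82.4 and 89.0 in the colon, H2-Aa at 500 and 186 against 22.7 and 26.1, and Ciita, the transactivator of the class, at 72.9 and 34.4 against 5.46 and 6.56. In the ileum mouse 1 was the higher one for each of these genes. Leukocyte markers fell on both sides. On the ileal side Ptprc, the pan-leukocyte gene CD45, was at 48.4 and 71.0 CPM, against 23.3 and 20.9 in the colon. Igha was at 5.80 and 2.61 CPM against 1.16 and 0.970. Itgax was at 2.85 and 2.11 against 1.21 and 0.508, a call lost with DESeq2 and without colon replicate 2 (log2 1.04). On the colonic side were Cd14 (log2 -2.23), Cd69 (-1.53) and Lck (-1.09), the calls of Cd69 and Lck being lost with DESeq2. Of the whole lists 3 of 17 intraepithelial lymphocyte, 3 of 3 B and plasma cell and 3 of 10 myeloid genes tested were ileum-higher. Colon-higher were 2, 0 and 1, beside 9.84% ileum-higher and 10.6% colon-higher among all tested genes. The median log2 of the lymphocyte list was -0.16. Cd79a had no count in ileum replicate 2 and colon replicate 2. The part of leukocytes in the class II difference was not tested. Of 9 stromal genes 5 were colon-higher, at 6.75 CPM or less, and Cela1 was the one gene of other epithelia above 100 CPM, at 142 and 119 in the colon against 4.74 and 5.96.

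The DDX5KO mice gave the same contrast in a second pair of animals, in which 9.36% of the 14982 tested genes were ileum-higher and 8.79% colon-higher. One of these libraries, ileum replicate 2, held 19.5% of its counts on the repeat-like genes that were left out. Of the 1399 wild-type ileum-higher genes that could be tested there, 1138 (81.3%) were called in the same direction, 1394 had the same sign and none was called in the opposite direction. For the colon-higher genes these numbers were 1061 (67.9%), 1535 and 0 of 1562. Paneth genes were ileal for 19 of 19, Ang4 included at a log2 of 3.23, brush-border genes for 23 of 24 and tuft genes for 17 of 19, and Hox genes were colonic for 14 of 22. Reg3b and Reg3g were not called in that pair, with log2 values of 7.95 and 7.02 and adjusted p-values of 0.103 and 0.0746. The test of the tissue difference between the genotypes, over 16283 genes, called 0.00614% of them, which is Slc8a1, the sodium-calcium exchanger of the mineral list. In the wild-type mice it was at 68.9 and 68.9 CPM in the colon and at 1.55 and 1.60 in the ileum (log2 -5.45 ± 0.14, adjusted p = 9.00e-09). Retnlb, called in wild-type mice at a log2 of -2.36, had a value of 0.20 in the DDX5KO pair, a difference that did not pass (adjusted p = 0.760).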

How the data were processed

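RNA-seq counts of epithelial cells from the ileum and colon of 2 wild-type mice, with those of 2 DDX5KO mice, were used. Per the study's methods the authors aligned reads with STAR 2.6.1a to mm10 and deposited raw counts of uniquely mapped exonic reads per gene (featureCounts, GENCODE) in 1 table for each tissue. The authors' normalized values, fold changes and p-values in the same tables were not used. Each table lists only genes with a count in 1 of its libraries, so the tables were joined by gene ID and a gene missing from one was set to 0. Gm10800, Gm10801 and Gm21738 were left out.

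Counts were filtered (filterByExpr, minimum count of 10), scaled by TMM and fitted with edgeR 4.0.16 (R 4.3.3), with the mouse as a block and the tissue as the term of interest. The replicate number marks the same animal in both tissues, by the column names of the study's supplementary table. The deviations of same-numbered libraries correlated at r = 0.156 across genes. Calls needed a Benjamini-Hochberg adjusted p under 0.05 and a difference of at least 2-fold. With the mouse as a block, p-values rest on how far the tissue difference varied between the 2 mice. That variance was moderated by estimates shared across genes. CPM values use TMM-scaled totals. SE was derived from the test, as the size of the log2 ratio divided by the square root of the quasi-likelihood F statistic. It is approximate, and for genes with few counts in a tissue, such as those with the largest ratios, it can be smaller than counting error alone. Lower bounds use a floor of 3 counts over the group. The fit was tested on simulated data. Those counts were drawn with the fit's own variance estimates, so the test bears on the code and not on those estimates. Positions are from the GENCODE vM21 annotation of GRCm38, for genes with the same versioned ID. The DDX5KO libraries were fitted in the same way, and the tissue by genotype interaction in 1 model of 8 libraries.

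The members and the 37 gene lists were chosen with earlier results of these data known. Genes were named by a rule: in each direction the 12 protein-coding genes with the largest change among those called, not overlapping and at 50 CPM or more in the higher tissue, the 5 with the highest level per length in each tissue, list members, and genes named by the study. Some genes that the rule picks are not reported here.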

Additional observations from a re-analysis of the deposited data

Results flagged for a closer look

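Slc8a1 differed between the genotypes in its tissue contrast, by a test of the difference itself. The tissue by genotype term was -4.98 on the log2 scale (wild-type minus DDX5KO, edgeR adjusted p = 0.0156). In the DDX5KO mice the gene was at 27.97 and 32.88 CPM in the ileum and 30.1 and 58.7 in the colon, a log2 of -0.48 (adjusted p = 0.135), while the wild-type ileum libraries were at 1.55 and 1.60. Of the DDX5KO libraries, all 4 lay below the wild-type colon and above the wild-type ileum level.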

How the results depend on the processing

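Without the fold limit, 3755 genes were higher in the ileum and 3680 in the colon. Under every other alternative both counts stayed within 1.5 times the reported ones: 1239 and 1175 with DESeq2 and the mouse as a block, 1535 and 1617 with no replicate block, and 1356 and 2032 with library totals as the only scaling. Leaving out 1 library in turn gave 1398 to 1592 ileum-higher and 1386 to 1755 colon-higher genes. Scaling by upper quartiles or totals moved the median of all genes to -0.13 or -0.16. Without the filter it was 0.35. Of 345 called genes that are named or listed, 325 had a value under every alternative, and 275 of these kept their call throughout. The other 20, among them Fgf15 and Enpp7, were not tested under some alternative, such as the one restricted to genes listed in both tables. None reversed where it was tested. Small list counts were the most sensitive: with DESeq2 the retinoid genes fell from 7 to 4 ileum-higher, the stromal genes from 5 to 3 colon-higher and the B and plasma cell genes from 3 to 1 ileum-higher. The stromal count was 2 without colon replicate 2, and the plasma cell count was 1 without ileum replicate 1 or colon replicate 2. Upper-quartile scaling or library totals gave 5 in place of 3 colonic sugar and amino acid carriers and no ileal goblet cell gene. The intraepithelial lymphocyte count was 1 in place of 3 without ileum replicate 1 or colon replicate 2. With no replicate block Trdc, Slc2a1 and Angptl4 lost their calls and Cpe gained one, and no other named or listed gene changed its call. With 2 mice, differences under 2-fold rest on little replication.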

Other observations

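Of 18 tested tight junction genes 2 were higher in each tissue, a share near that of all tested genes (9.84% ileum-higher and 10.6% colon-higher). Cldn8, a barrier claudin of the distal nephron and colon, was at 196 and 178 CPM in the colon and 7.15 and 7.63 in the ileum (log2 -4.67 ± 0.11), and Cldn14 was at 1.82 and 1.20 against 0.193 and 0.436, a call lost with DESeq2 and without colon replicate 1 (log2 -2.0). Cldn15, which forms a cation pore, was at 385 and 383 CPM in the ileum and 140 and 161 in the colon (log2 1.36 ± 0.09), and Cldn4 at 98.9 and 131 against 26.4 and 17.3. Cldn3, Tjp3 and F11r had log2 values of -0.01, 0.07 and 0.01.

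Of 6 tested gasdermins, the pore-forming proteins of lytic cell death, only Gsdme was called, at 86.1 and 59.4 CPM in the ileum and 9.05 and 8.64 in the colon (log2 3.02 ± 0.13). The abundant Gsdmc4 was at 2092 and 2714 CPM in the ileum and 2008 and 2369 in the colon (log2 0.13 ± 0.11). Of 12 mitochondrially encoded protein genes 3 were called ileum-higher, beside 9.84% of all tested genes. These were mt-Nd2, mt-Nd4 and mt-Nd5, subunits of complex I, at log2 values of 1.37, 1.21 and 1.68. The other complex I genes tested, mt-Nd1, mt-Nd3 and mt-Nd6, were not called (0.59, 0.17 and 0.23).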
